A study of Mus musculus with 13 samples.

Results

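Neurofilaments, microtubule-binding proteins and growth-associated proteins build and maintain the axon, and 10 of their genes were followed here through single excitatory neurons of the mouse claustrum, a thin sheet of neurons beneath the insular cortex. The genes were Nefl, Nefm, Nefh, Ina, Map1b, Mapt, Stmn1, Stmn2, Gap43 and Rtn1. They were chosen by name from the 23427 genes in the 2 count tables, with earlier results of these data known. All 10 had a row in both tables (Map1b under its older symbol Mtap1b) and all 10 passed the filter on low counts in every comparison. Cells were picked by hand from the dissected claustrum of 4 mature male wild-type C57BL/6 mice and processed on 13 plates. In the first animal, called the blind mouse, rAAV2-retro-CAG-GFP in the anterior cingulate cortex guided the dissection and cells were picked without regard to GFP. In the other animals, projection mice 1 to 3, green retrobeads (fluorescent beads that axon terminals take up and carry to the cell body) were placed in the lateral entorhinal cortex (LEC) and red ones in the retrosplenial cortex (RSC). Their cells carry the labels RSC, LEC or Unlabeled, and the RSC and LEC cells were picked for their beads. Cells outside these groups are described as picked blind, so the label Unlabeled does not show that a cell lacked beads or projects to neither area.

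Of 1112 harvested cells, the 1011 with at least 1 count of Snap25, a synaptic protein gene of neurons, and of Slc17a7, the vesicular glutamate transporter of cortical excitatory neurons, were kept. Synpr (synaptoporin, a synaptic vesicle protein) divided them into 438 Synpr-high cells with at least 200 CPM (counts scaled to a common total per cell) and 573 Synpr-low cells, and 21 cells lay between 100 and 400 CPM. Among the labelled cells of the projection mice, 213 RSC cells were Synpr-high and 34 were Synpr-low, while 45 LEC cells were Synpr-high and 241 were Synpr-low. The Unlabeled cells of those mice were 67 Synpr-high and 173 Synpr-low. The summed level of the 7 excitatory neuron markers was 4569 to 6359 CPM over mice in Synpr-high cells and 3910.2 to 5968 CPM in Synpr-low cells. These markers include Snap25 and Slc17a7, which chose the cells, and Snap25 gave most of the sum. The sum is therefore no test of the cells' identity. The median total per cell lay between 25475 and 197697 counts in Synpr-high cells and between 28770.0 and 155018 counts in Synpr-low cells, depending on the mouse. The blind mouse was the shallowest. Plates ran on 2 flow cells with different read lengths, 3 plates on 1 of them and the remaining plates on the other. The blind mouse has 3 plates and the projection mice have the rest. Which plates ran on which is not named in the sources used here. Blind mouse and sequencing run may thus coincide, and the part of the run in differences between mice was not tested. Within each mouse every label lay on plates of its own, except for plate 12 of projection mouse 3, so label and plate cannot be told apart outside that plate. Of the 368 cell barcodes, 343 occurred on more than 1 plate, since plates reused the barcode set.

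Neurofilaments are the intermediate filaments of neurons. The light, medium and heavy chains (Nefl, Nefm and Nefh) assemble together with alpha-internexin (Ina) into the filaments that fill large axons and set their calibre. Map1b and Mapt (tau) bind along microtubules, the tracks of axonal transport, whereas the stathmins Stmn1 and Stmn2 bind free tubulin and favour microtubule disassembly. Gap43 is a membrane protein of growth cones and presynaptic terminals, and Rtn1 belongs to the reticulons, which shape tubules of the endoplasmic reticulum. For each mouse and group, counts of all its cells were summed and scaled by TMM, a method that equalizes libraries on the bulk of their genes. Levels below are CPM on that scale, listed in the order blind mouse, then projection mice 1, 2 and 3. Fold changes are on the log2 scale ± SE from edgeR's quasi-likelihood test with the mouse as a block, and p-values are adjusted by Benjamini-Hochberg over all genes tested, with 0.05 as the threshold. Counts near the 3′ end were tallied, and levels of different genes were not ranked against each other.

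In Synpr-high neurons, 6 of the 10 genes were higher than in Synpr-low neurons of the same mice, and none passed the threshold in the other direction. Rtn1, Nefl and Nefm rose most, Gap43 and Stmn2 rose less, and Stmn1 rose least. Ina was lower in Synpr-high cells of all 4 mice without passing the threshold, and Map1b, Mapt and Nefh lay close together or overlapped. Across all 13640 genes tested, 14.6% passed the threshold in this comparison, 7.43% as higher and 7.19% as lower in Synpr-high cells. These were 1013 higher and 981 lower genes, and with sums scaled to the ERCC spike-ins (synthetic RNAs added in equal amount to each well) the split was 2609 higher and 555 lower. The median log2 fold change was 0.57 over the 10 genes and -0.00 over all genes tested. The 10 genes were chosen with earlier results of these data known, so setting them beside all genes is a description, not a test.

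**Figure D1:**
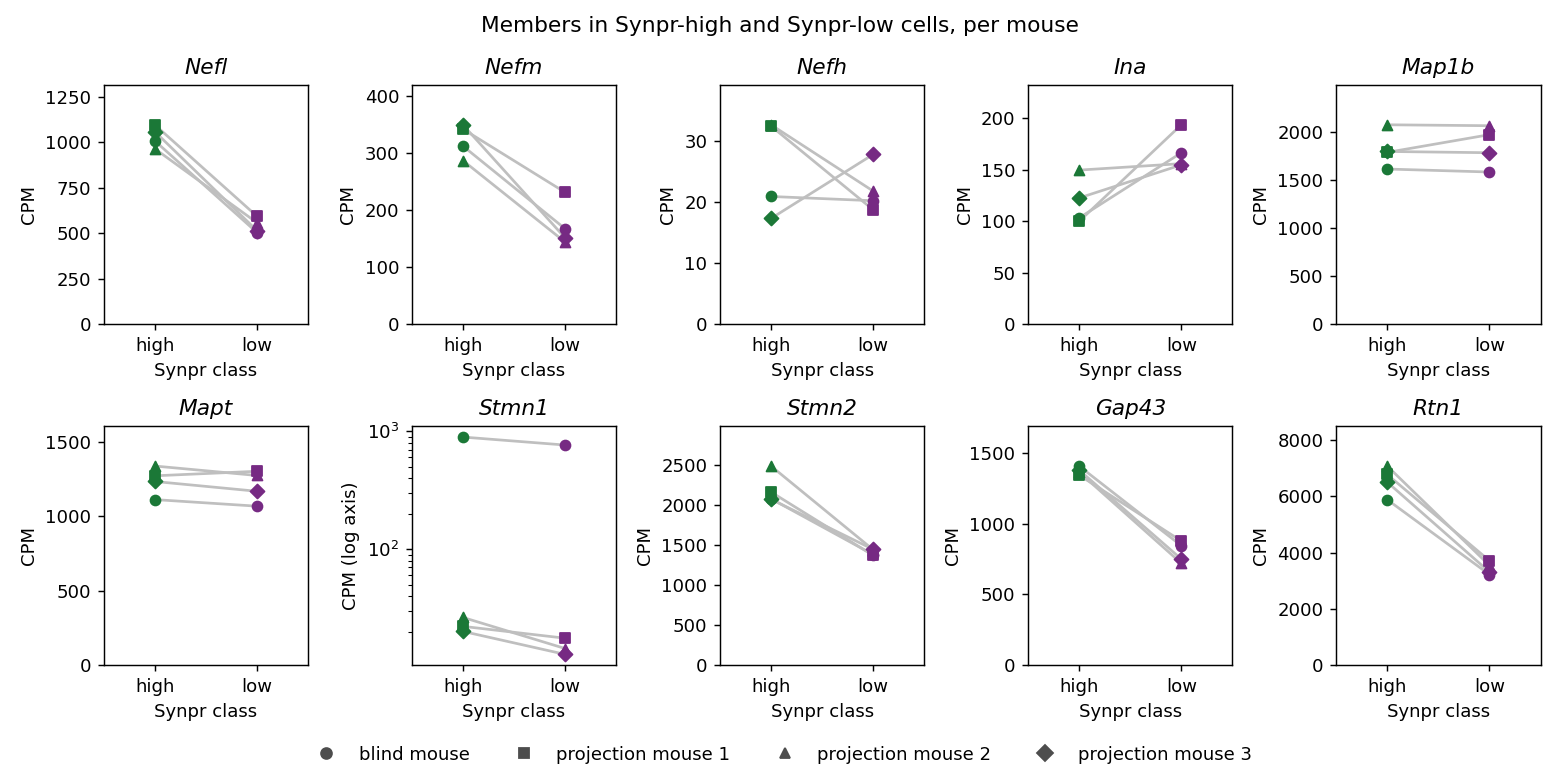
Levels of the 10 genes in CPM (y axis, a log axis for Stmn1 only) in Synpr-high and Synpr-low cells (x axis), with 1 symbol per mouse and a grey line joining the sums of a mouse. The lines of Nefl, Nefm, Stmn2, Gap43 and Rtn1 fall from high to low in all 4 mice, those of Ina rise in all 4, and Stmn1 of the blind mouse lies far above the other mice in both classes.

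Among the neurofilament chains, Nefl, the core subunit of the filament, stood at 1007, 1096, 964 and 1058 CPM in Synpr-high cells. In Synpr-low cells it stood at 503, 592, 557 and 513 CPM, so the lowest Synpr-high sum exceeded the highest Synpr-low sum. The mean ± SD was 1031 ± 57.7 CPM against 541 ± 41.3 CPM (n = 4 mice), and the fitted difference was 0.93 ± 0.0591 (adjusted p = 5.50e-05, edgeR). Nefm, the medium chain, was at 312, 341, 286 and 349 CPM in Synpr-high cells and 167, 231, 143 and 151 CPM in Synpr-low cells. Its groups also did not overlap, and it differed by 0.92 ± 0.105 (adjusted p = 8.44e-04, edgeR). The Synpr-low sum of projection mouse 1 was the highest of the 4 for Nefm, and a single cell gave 13.9% of its 4465 Nefm counts, against 3.96 to 7.01% in the Synpr-low sums of the other mice.

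Nefh, the heavy chain, was near the floor of these libraries. It stood at 20.9, 32.4, 32.6 and 17.3 CPM in Synpr-high cells and 20.2, 18.7, 21.8 and 27.8 CPM in Synpr-low cells, with overlapping groups, and rested on as few as 67 counts in a sum. Its fitted difference of 0.19 ± 0.260 did not pass the threshold (adjusted p = 0.717, edgeR), and a single cell gave 8.57 to 27.7% of the counts of a sum. Ina, which joins the other chains in central axons, went the other way. It was 103, 99.8, 149.7 and 123 CPM in Synpr-high cells and 167, 194, 156 and 155 CPM in Synpr-low cells, and the highest Synpr-high sum, of projection mouse 2, lay just under the lowest Synpr-low sum. The difference of -0.51 ± 0.144 missed the threshold (adjusted p = 0.0514, edgeR), while 10 of 15 alternative analyses passed it, with adjusted p between 0.00424 and 0.367 over all 15.

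Microtubule-binding genes did not follow 1 pattern. Map1b stood at 1618, 1791, 2079.6 and 1801 CPM in Synpr-high cells and 1587, 1976, 2069.8 and 1788 CPM in Synpr-low cells, a difference of -0.02 ± 0.0456 (adjusted p = 0.808, edgeR). Mapt stood at 1111, 1271, 1337 and 1233 CPM and 1067, 1301, 1273 and 1167 CPM, a difference of 0.04 ± 0.0455 (adjusted p = 0.626, edgeR). For both genes the blind mouse was lowest in both classes, and the spread between mice exceeded the difference between classes. The stathmin Stmn2, a regulator of microtubules in growing axons, was 2080.1, 2165, 2489 and 2074 CPM in Synpr-high cells and 1382, 1372, 1443 and 1447 CPM in Synpr-low cells. No Synpr-low sum of Stmn2 reached a Synpr-high sum, and the difference was 0.64 ± 0.0523 (adjusted p = 1.76e-04, edgeR).

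Stmn1 was the only one of the 10 genes whose level split by count table. It was 894, 22.1, 26.4 and 20.1 CPM in Synpr-high cells and 765, 17.6, 14.4 and 12.8 CPM in Synpr-low cells, so its mean level over both classes was 43.9-fold higher in the blind mouse than in the projection mice. The other 9 genes differed between the tables by 0.818- to 1.05-fold. Of 2442 genes with a mean of at least 100 CPM in either table, 50 were at least 10-fold higher and 2 at least 10-fold lower in the blind mouse, and the cause was not tested. Within each of the 4 mice Stmn1 was higher in Synpr-high cells, and the difference of 0.51 ± 0.114 passed the threshold (adjusted p = 0.0209, edgeR). The call was lost without the blind mouse (adjusted p = 0.14), without projection mouse 2 (adjusted p = 0.0571) and without projection mouse 3 (adjusted p = 0.0662), and in the edgeR fit without the mouse block (adjusted p = 0.973).

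Gap43, a substrate of protein kinase C in growth cones and terminals, was 1407, 1343, 1365 and 1379 CPM in Synpr-high cells, a narrow range, and 844, 877, 720.3 and 750.1 CPM in Synpr-low cells. The groups were clearly apart, with a difference of 0.79 ± 0.0615 (adjusted p = 1.46e-04, edgeR). Rtn1 showed the lowest adjusted p of the 10 genes. It was 5880.4, 6773, 7074 and 6503 CPM in Synpr-high cells and 3221, 3713, 3545 and 3312 CPM in Synpr-low cells, a difference of 0.93 ± 0.0377 (adjusted p = 6.81e-06, edgeR). Nefl, Nefm, Stmn2, Gap43 and Rtn1 kept their call in all 15 alternative analyses.

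The same contrast was taken within each plate, where both Synpr classes shared the library preparation. Rtn1, Nefl, Gap43 and Stmn2 were higher in the Synpr-high cells of 13 of 13 plates. Log2 ratios of CPM ranged from 0.64 to 1.02 for Rtn1, 0.41 to 1.07 for Nefl, 0.24 to 1.10 for Gap43 and 0.29 to 0.91 for Stmn2. Stmn1 was higher on 12 of 13 plates and Nefm on 10 of 13. Nefm was lower in Synpr-high cells on plates 2, 7 and 10, at log2 ratios of -0.15, -0.36 and -0.75, and plates 7 and 10 held 6 Synpr-high and 12 Synpr-low cells, respectively. Ina was lower in Synpr-high cells on 12 of 13 plates, and Map1b was higher on 6 and lower on 7. These are values for single plates, with no test, and plate 6 held 3 Synpr-low cells.

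**Figure D2:**
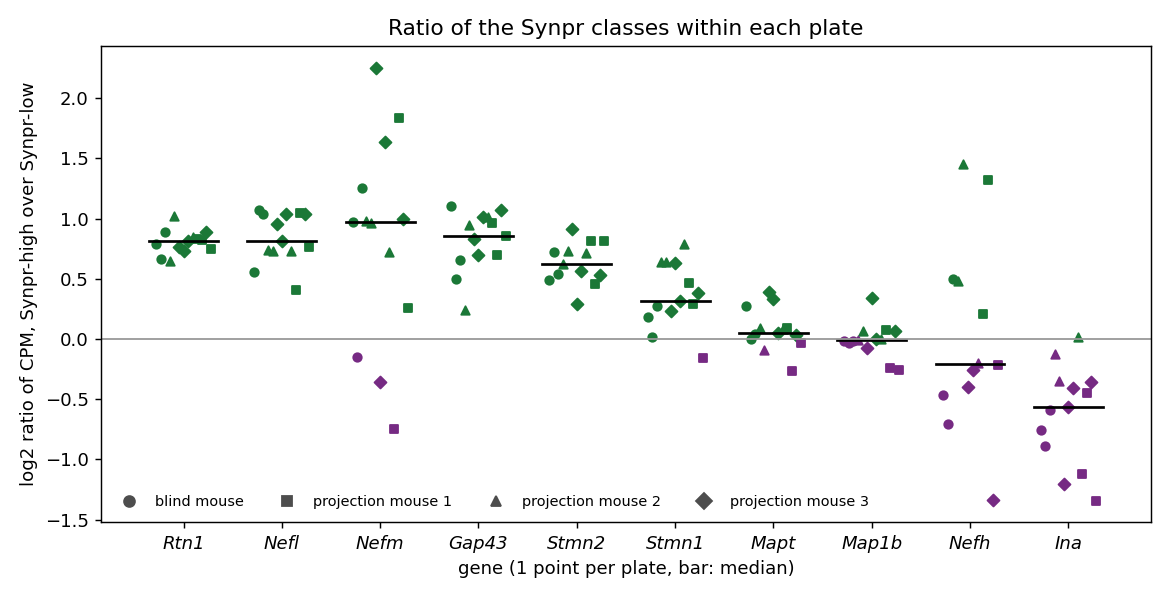
Log2 ratio of CPM in Synpr-high over Synpr-low cells (y axis) within each of 13 plates for the 10 genes (x axis), with 1 symbol per plate shaped by mouse, a bar at the median, green above 0 and purple below 0. All points of Rtn1, Nefl, Gap43 and Stmn2 lie above 0, the medians of Mapt and Map1b lie near 0, and 1 point of Ina lies above 0.

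Signs of cell quality moved with the classes. The median share of mitochondrial counts was 1.75, 2.01, 2.14 and 2.05% in Synpr-high and 1.86, 2.29, 2.59 and 2.57% in Synpr-low cells, lower in Synpr-high cells of all 4 mice. The median total per cell was higher in Synpr-high cells of projection mice 1 and 3 and lower in those of the other 2 mice. The part of these measures in the differences was not tested. When each cell was thinned to 20000 counts, which left out 32 Synpr-high and 52 Synpr-low cells, the median cell held 107 to 144 counts of Rtn1 in Synpr-high and 58.5 to 73 in Synpr-low cells, depending on the mouse. For Nefl these medians were 18 to 21 and 8 to 10 counts. Scaling the sums to the ERCC spike-ins moved the median of all genes by 0.28 toward Synpr-high cells. On that scale Mapt (0.32, adjusted p = 0.0212, edgeR) and Map1b (0.26, adjusted p = 0.044, edgeR) passed the threshold as higher, both near the shift of all genes, and Ina stood at -0.22.

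Levels were then followed along the Synpr level of the cells, as a description. In the 397 cells with no Synpr count, Rtn1 was 3463 ± 283 CPM (mean ± SD, n = 4 mice). In the 152 cells above 0 and under 50 CPM of Synpr it was 3466 ± 358 CPM. In the 24 cells from 50 to 200 CPM of Synpr it was 3894 ± 457 CPM, and in the 35 cells from 200 to 800 CPM it was 5291 ± 1158 CPM. It reached 6399 ± 713 CPM in the 166 cells from 800 to 1600 CPM and 6817 ± 783 CPM in the 237 cells above. The ranges of Rtn1 over mice overlapped in every pair of neighbouring steps, and the 2 middle bins held as few as 4 and 5 cells of a mouse. Nefl likewise stood at 554 ± 66.5, 600 ± 85.7, 626 ± 167, 673 ± 178, 998 ± 122 and 1013 ± 78.7 CPM over the same bins, and its ranges overlapped except from the 200 to 800 bin to the next.

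Markers of other cells were set beside the Synpr classes. Of the 8 oligodendrocyte markers 7 were tested and 2, Mbp and Mobp, were lower in Synpr-high cells, beside 7.19% of all genes. The list summed to 51.6 to 445 CPM over mice in Synpr-high and 55.9 to 739 CPM in Synpr-low cells, with overlap. No astrocyte, vascular or inhibitory neuron marker tested passed the threshold, and no microglia marker could be tested. The 6 astrocyte markers summed to 15.4 to 37.2 and 24.0 to 78.7 CPM, with Aqp4 at 0 in Synpr-high cells, and the 7 microglia markers to at most 10.1 CPM. The 5 vascular markers found summed to at most 3.17 CPM. Of the 6 inhibitory neuron markers found, Npy gave most of the sum, with 1.25 to 405 CPM in Synpr-high and 127 to 1040.1 CPM in Synpr-low cells. Sst leaned the other way, with 0 to 98.3 CPM in Synpr-high and 0 to 4.71 CPM in Synpr-low cells. Snap25, a gene of neurons at large that also chose the cells, was 5971, 4193, 3692 and 5389.9 CPM in Synpr-high and 5349, 3552, 2945 and 3601 CPM in Synpr-low cells. The part of these levels in the differences above was not tested.

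Gap43 and the stathmins are also known from injured and regrowing axons, so 8 axon injury genes were set beside them. They summed to 61.8 to 79.6 CPM in Synpr-high and 145 to 333 CPM in Synpr-low cells. Of the 3 that could be tested, 1 passed the threshold, Jun, which was lower in Synpr-high cells at 59.2 to 70.1 against 104 to 307 CPM. Jun is also an immediate early gene of activity, and the 8 other immediate early genes listed summed to 371 to 1138 CPM in Synpr-high and 316 to 805 CPM in Synpr-low cells, with 1 of 8 called, as higher in Synpr-high cells. The part of injury or activity in the levels of Gap43 and the stathmins was not tested.

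The Synpr-low cells hold several kinds of neuron, and 162 of them carried at least 100 CPM of 8 deep-layer cortical markers (Ctgf, Sla, Foxp2, Tle4, Fezf2, Syt6, Rprm and Cyr61), called here layer 6 markers, which left 411 without. Against the Synpr-low cells without these markers, 5 of the 10 genes were higher in Synpr-high cells, where 9.43% of 13032 genes passed in either direction. Rtn1 differed by 0.94 ± 0.0566 (adjusted p = 3.73e-06, edgeR), Gap43 by 1.01 ± 0.104 (adjusted p = 1.14e-04, edgeR) and Stmn2 by 0.64 ± 0.0623 (adjusted p = 6.91e-05, edgeR). Nefl differed by 0.88 ± 0.133 (adjusted p = 0.00137, edgeR) and Stmn1 by 0.64 ± 0.127 (adjusted p = 0.00745, edgeR). The Stmn1 call was lost without the blind mouse (adjusted p = 0.157) and without the mouse block (adjusted p = 0.988, edgeR). Nefm stood at 155, 106, 152 and 157 CPM in the low cells without the markers, all below the Synpr-high sums, and its difference of 1.14 ± 0.339 missed the threshold (adjusted p = 0.0575, edgeR), while it passed without projection mouse 1 (adjusted p = 0.00379) and in 4 others of 17 alternatives.

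Within the Synpr-low cells, Gap43 and Map1b separated the cells with layer 6 markers from those without. Gap43 stood at 682, 839, 598 and 629 CPM in the cells without the markers and 1164, 993, 1177 and 1222 CPM in those with them. The groups did not overlap, and the log2 difference, cells without the markers against cells with them, was -0.73 ± 0.104 (adjusted p = 0.0027, edgeR). Map1b was 1448, 1799, 1948 and 1661 CPM without and 1855, 2439, 2591 and 2297 CPM with the markers. It was higher with the markers in each of the 4 mice, although the groups overlapped because mice differed in level, and the difference was -0.42 ± 0.0520 (adjusted p = 0.0013, edgeR). The Map1b call was lost without the mouse block (adjusted p = 0.112, edgeR) and with scaling to the spike-ins (adjusted p = 0.051, edgeR). Oligodendrocyte markers moved with this split, at 65.9 to 1021 CPM in the cells without and 35.9 to 115 CPM in those with layer 6 markers, with 1 of 6 tested called as higher without, and their part in the differences was not tested. Of 13032 genes, 3.25% passed in this comparison. The other 8 genes did not, at log2 differences from -0.55 for Nefm to 0.34 for Nefh. Rtn1 (-0.02 ± 0.0562) and Stmn2 (-0.02 ± 0.0622) differed least, along with Mapt (-0.02 ± 0.0523).

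**Figure D3:**
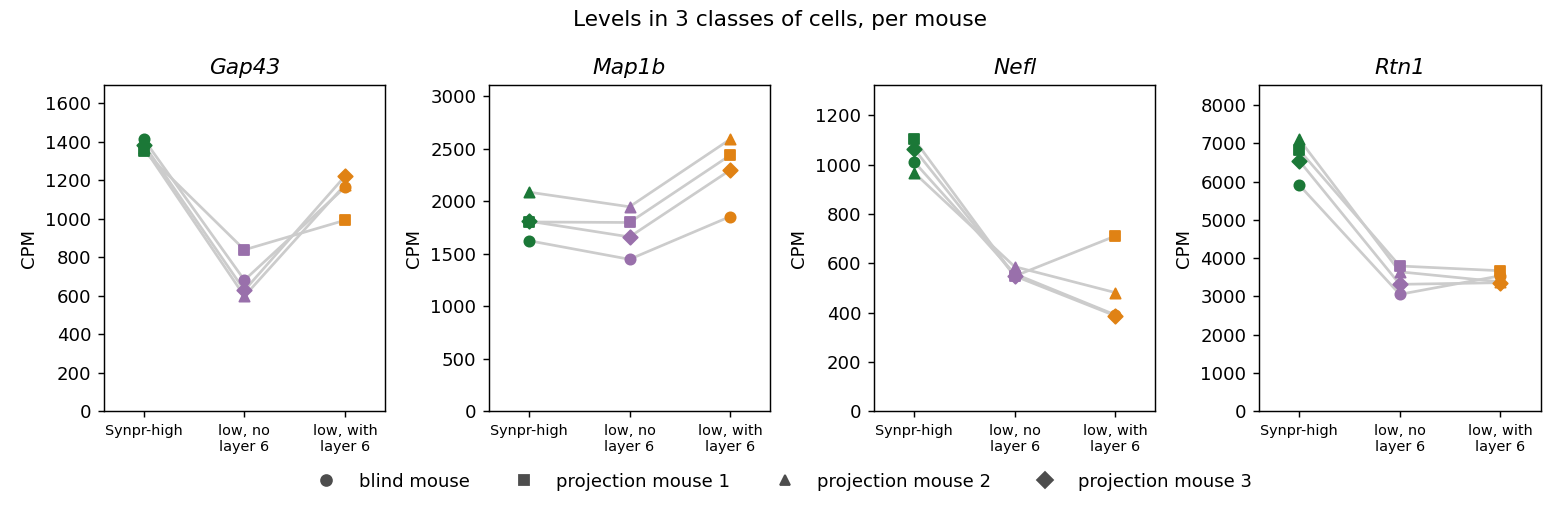
Levels of Gap43, Map1b, Nefl and Rtn1 in CPM (y axis) in Synpr-high cells, Synpr-low cells without layer 6 markers and Synpr-low cells with them (x axis), with 1 symbol per mouse and grey lines joining a mouse. Nefl and Rtn1 are high in the first class only, Gap43 is lowest in the middle class, and Map1b rises from the middle class to the last in each mouse.

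The comparison of projection labels asks whether neurons that send axons to RSC and to LEC differ in these genes. RSC cells held more Rtn1, Nefl, Nefm and Stmn2 than LEC cells of the same mice, and none of the 10 genes passed the threshold as lower. Over 13976 genes tested, 3.86% passed, and 1.86% of the genes tested passed as higher in RSC cells. These were 260 and 279 genes higher and lower, and with scaling to the spike-ins 335 and 171. The median share of mitochondrial counts was lower in RSC than in LEC cells of all 3 mice, at 1.92 to 2.10% against 2.19 to 2.62%, and its part in the differences was not tested. Levels are listed below for projection mice 1, 2 and 3, since the blind mouse has no bead labels.

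Rtn1 was 6549.6, 6933 and 6844 CPM in RSC cells, 4809, 4241 and 3782 CPM in LEC cells and 4353, 4539 and 4258 CPM in Unlabeled cells. RSC cells exceeded both other groups without overlap, by 0.67 ± 0.0726 against LEC (adjusted p = 0.00299, edgeR) and 0.63 ± 0.0725 against Unlabeled (adjusted p = 0.00992, edgeR). Nefl was 1071, 885 and 1091 CPM in RSC, 675, 636 and 616 CPM in LEC and 832, 712 and 672 CPM in Unlabeled cells. It differed by 0.66 ± 0.0929 between RSC and LEC (adjusted p = 0.00683, edgeR), and by 0.46 ± 0.0927 between RSC and Unlabeled cells, just above the threshold (adjusted p = 0.052, edgeR). It passed in 5 of 12 alternatives, with adjusted p between 3.69e-04 and 0.393.

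Nefm was 367, 286 and 344 CPM in RSC cells and 149, 171 and 179 CPM in LEC cells, a difference of 0.97 ± 0.213 (adjusted p = 0.0404, edgeR). In Unlabeled cells it ranged widely, at 403, 182 and 242 CPM, with projection mouse 1 above all RSC sums. Stmn2 was 2082, 2319.7 and 2029.6 CPM in RSC cells, 1648, 1621 and 1607 CPM in LEC cells and 1615, 1847 and 1751 CPM in Unlabeled cells. The RSC sums were the highest, by 0.40 ± 0.0655 against LEC (adjusted p = 0.013, edgeR) and 0.30 ± 0.0654 against Unlabeled cells (adjusted p = 0.0681, edgeR), where DESeq2 passed it (adjusted p = 0.0082).

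These calls leaned on single mice. Without projection mouse 2 all 4 were lost, with adjusted p of 0.0629 for Rtn1, 0.0566 for Nefl, 0.115 for Nefm and 0.147 for Stmn2 (edgeR). Without projection mouse 3, Nefl (0.0876), Nefm (0.266) and Stmn2 (0.116) lost theirs. The directions held in both cases. Calls over all genes also fell, from 539 to 86 without projection mouse 2 and to 88 without projection mouse 3. Over 12 alternatives the log2 differences ranged from 0.58 to 0.91 for Rtn1 and 0.57 to 0.91 for Nefl. They ranged from 0.85 to 1.22 for Nefm and 0.34 to 0.63 for Stmn2.

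Gap43 stood at 1145, 1175 and 1348 CPM in RSC and 1142, 792 and 915 CPM in LEC cells, so the mice disagreed on the size of the difference, which was nearly absent in projection mouse 1. The fitted 0.38 ± 0.118 did not pass the threshold (adjusted p = 0.134, edgeR). It passed without projection mouse 1 (adjusted p = 0.0275) and in DESeq2 (adjusted p = 0.0162). Stmn1 was 23.3, 26.7 and 21.7 CPM in RSC and 16.8, 16.2 and 14.0 CPM in LEC cells, higher in RSC cells of all 3 mice, with a difference of 0.61 ± 0.237 that did not pass (adjusted p = 0.23, edgeR). Ina differed by -0.28 ± 0.157 and was lower in RSC cells of all 3 mice, with adjusted p = 0.44 (edgeR). Map1b (-0.05 ± 0.0614), Mapt (0.03 ± 0.0597) and Nefh (-0.05 ± 0.246) did not pass either.

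Comparisons with Unlabeled cells set the labels against cells of another makeup. Layer 6 markers summed to 159 to 499.8 CPM in Unlabeled cells, 17.3 to 59.9 CPM in RSC cells and 31.7 to 44.9 CPM in LEC cells, and their part in the differences below was not tested. Of the 10 genes 1, Rtn1, passed for RSC against Unlabeled, where 1.46% of genes passed. The Rtn1 call was lost without projection mouse 2 (adjusted p = 0.118, edgeR) and with scaling to the spike-ins (adjusted p = 0.107, edgeR). Map1b was lower in RSC cells (1844, 1908 and 1752 CPM) than in Unlabeled cells (2149, 2212 and 2086 CPM) in all 3 mice, without passing (adjusted p = 0.13, edgeR), and among Synpr-low cells it was the cells with layer 6 markers that held more Map1b. None of the 10 genes passed for LEC against Unlabeled, where 0.0143% of genes did, and the widest difference was that of Nefm, at -0.66 ± 0.214 (adjusted p = 0.465, edgeR), which passed in DESeq2 alone of 12 alternatives (adjusted p = 0.0357). RSC and LEC cells share the Unlabeled cells as their reference in these 2 comparisons.

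Plate 12 of projection mouse 3 held 34 RSC and 44 LEC cells side by side. There Rtn1 was 5733 CPM in RSC and 3796 CPM in LEC cells, a log2 ratio of 0.59, and Nefl was 1038 and 637 CPM, a log2 ratio of 0.71. Nefm had a log2 ratio of 0.67, Gap43 of 0.49 and Stmn2 of 0.24. All 5 genes thus had the sign of the comparison over mice on the plate shared by both labels, but these cells are also part of that comparison. Among its Synpr-high cells, 29 RSC and 10 LEC, log2 ratios were 0.14 for Rtn1, 0.12 for Nefl and 0.15 for Nefm. Gap43 and Stmn2 stood at -0.05 and -0.03 there. Its Synpr-low cells, 5 RSC and 34 LEC, gave 0.19, 0.55, 0.29, -0.68 and -0.38 in the same order of genes. These are values of 1 plate of 1 mouse, with no test.

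RSC cells were mostly Synpr-high and LEC cells mostly Synpr-low, so the labels were also compared within each class. Among Synpr-high cells, none of the 10 genes passed the threshold between RSC and LEC cells. Rtn1 was 6919.8, 7529.9 and 6972 CPM in RSC and 6984, 7510.4 and 5768 CPM in LEC cells, a difference of 0.09 ± 0.0727, against 0.67 over all cells. Nefl was 1104, 970.1 and 1107 and 1067, 975 and 1029.7 CPM, a difference of 0.05 ± 0.129. Stmn2 differed by 0.01 ± 0.0923 and Nefm by 0.25 ± 0.401, and the groups overlapped for Nefl and Stmn2. Nefm was higher in RSC cells of all 3 mice without overlap, at 321 to 352 CPM against 261 to 302 CPM in LEC cells. The LEC sums of this class rested on 18, 11 and 16 cells. In this comparison 0% of 13162 genes passed in edgeR, 693 had an unadjusted p under 0.05, and 30 passed in DESeq2.

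Among Synpr-low cells, the RSC sum of projection mouse 3 rested on 8 cells and the errors were wider. Nefm was 566, 157 and 155 CPM in RSC and 82.2, 143 and 163 CPM in LEC cells, and its difference of 0.95 ± 0.419 (adjusted p = 0.361, edgeR) came mostly from projection mouse 1. Nefl was 827, 559.8 and 664 and 500.4, 559 and 534 CPM, with a difference of 0.35 ± 0.130 (adjusted p = 0.267, edgeR). Rtn1 differed by 0.18 ± 0.0728 (adjusted p = 0.312, edgeR) and Stmn2 by -0.17 ± 0.0927. None of the 10 genes passed, beside 0.547% of all genes. The low class did not hold other markers equal between the labels. The 7 core markers mark Synpr-high cells and include Synpr, which itself set the classes. Of these markers, 5 were higher in RSC than in LEC cells of the low class (median log2 difference of 1.92). Within Synpr-high cells none of 7 was. Their part in the differences of Nefl and Rtn1 was not tested. The difference between the classes in the RSC against LEC contrast passed for none of the 10 genes either, beside 0.122% of all genes, and was -0.30 ± 0.183 for Nefl and -0.09 ± 0.103 for Rtn1.

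Over the 6 groups of label and class, Rtn1 thus fell into 2 levels. The Synpr-high groups ran from 6324 ± 381 CPM in Unlabeled to 7140.5 ± 338 CPM in RSC cells (mean ± SD, n = 3 mice), and the Synpr-low groups from 3493 ± 220.0 CPM in Unlabeled to 4064 ± 518 CPM in RSC cells. The labels overlapped in all pairs of Synpr-low groups, and among Synpr-high cells the RSC sums lay above the Unlabeled sums, a difference that was not tested. The lowest Synpr-high sum lay above the highest Synpr-low sum. Gap43 showed the same 2 levels, with the order of labels turned among Synpr-high cells, where RSC cells stood at 1274 ± 97.2 CPM and Unlabeled cells at 1568 ± 123 CPM. For Nefm the classes overlapped, since Synpr-low cells of projection mouse 1 reached 566 CPM in RSC and 380.2 CPM in Unlabeled cells.

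**Figure D4:**
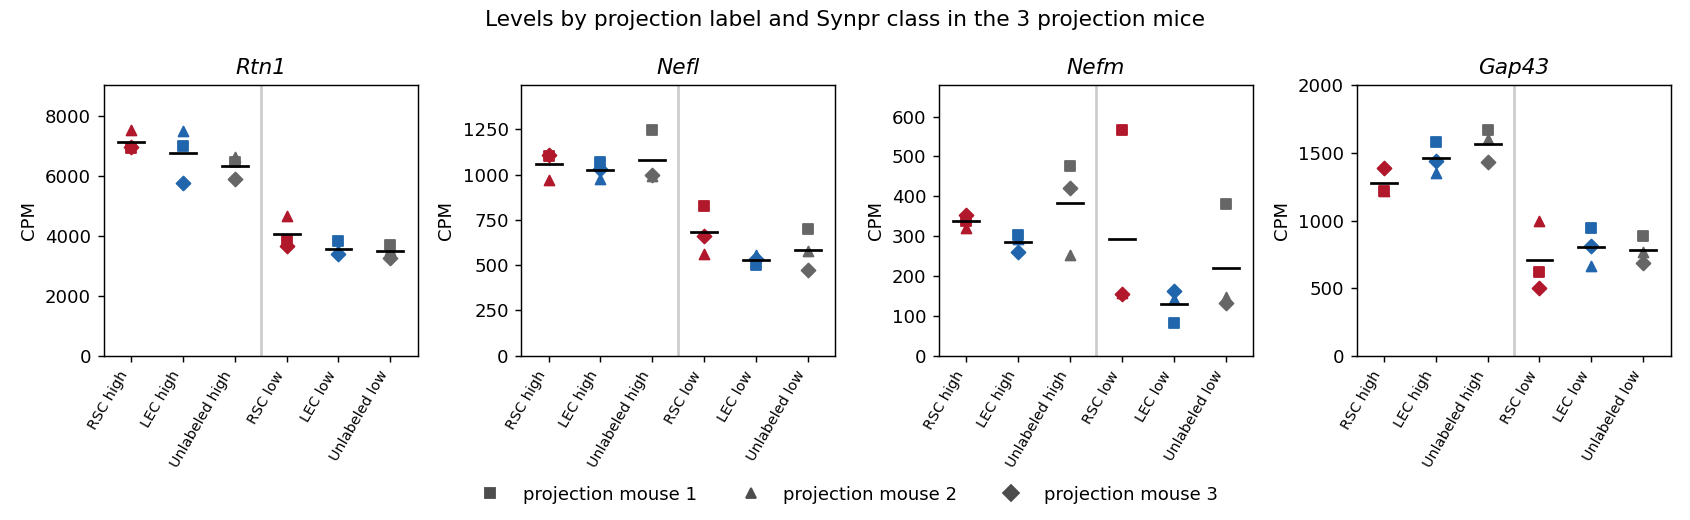
Levels of Rtn1, Nefl, Nefm and Gap43 in CPM (y axis) in RSC, LEC and Unlabeled cells, Synpr-high left and Synpr-low right of the grey line (x axis), with 1 symbol per projection mouse, coloured by label, and a bar at the mean. Rtn1, Nefl and Gap43 separate by Synpr class more than by label, and projection mouse 1 stands high for Nefm among Synpr-low RSC and Unlabeled cells.

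**Figure D5:**
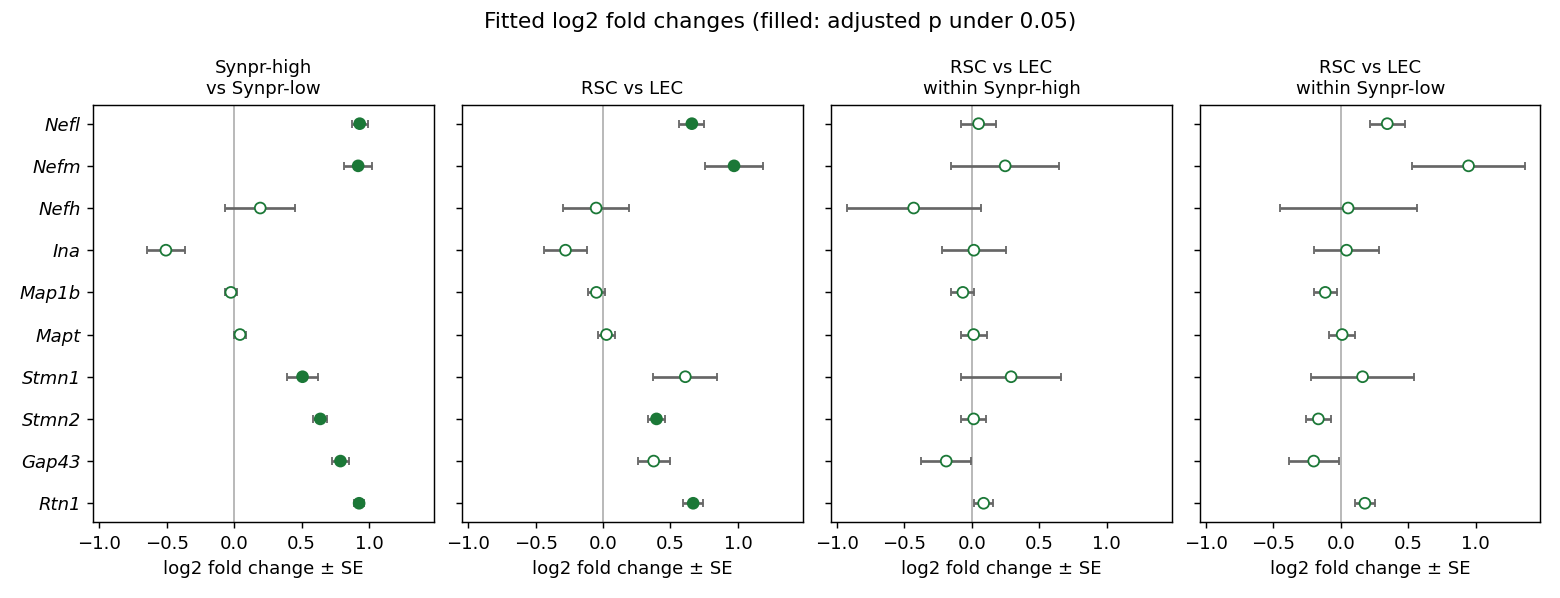
Fitted log2 fold change ± SE (x axis) of the 10 genes (y axis) in 4 comparisons, with filled circles where the adjusted p was under 0.05 and a line at 0. The filled circles are 6 for Synpr-high against Synpr-low and 4 for RSC against LEC, and there are none when RSC and LEC are compared within a Synpr class.

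Other genes of the axon cytoskeleton, taken as whole lists, gave mixed directions between Synpr-high and Synpr-low cells, where 14.6% of all genes passed either way. The tubulins held more calls than that share. So did the shorter lists of other intermediate filaments, other stathmins, and Gap43-like membrane substrates with collapsin response mediators, where a single call weighs heavily. The calls of the microtubule-associated genes, motors, reticulons, spectrins and kinases lay near it, and no list was tested against it. Of 12 tubulins 11 were tested, 5 were higher and 1 was lower. Tubb5 differed by 0.68 ± 0.0467 (adjusted p = 8.00e-05), the neuronal tubulin Tubb3 by 0.52 ± 0.0850 (adjusted p = 0.00512) and Tuba1a by 0.30 ± 0.0582 (adjusted p = 0.0112). Of 19 other microtubule-associated genes tested, 2 were higher, Map1a by 0.46 ± 0.0835 (adjusted p = 0.00812) and the plus-end protein Mapre2 by 0.37 ± 0.0946 (adjusted p = 0.0334). Of 20 axonal transport motors and their partners, 3 were higher and 1 lower. The kinesin light chain Klc1 differed by 0.41 ± 0.0372 (adjusted p = 2.79e-04) and the kinesin heavy chain Kif5c by 0.49 ± 0.0568 (adjusted p = 9.71e-04), while the dynein intermediate chain Dync1i1 was lower, at -0.89 ± 0.0812 (adjusted p = 2.92e-04).

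Among other intermediate filament genes 1 of 4 tested was higher, Synm, at 1.36 ± 0.118 (adjusted p = 2.33e-04). Of the 2 other stathmins Stmn4 was lower, at -0.46 ± 0.0643 (adjusted p = 0.00242), opposite to Stmn1 and Stmn2. Of 6 other reticulons and their receptors 1 was higher, the receptor Rtn4r, at 0.80 ± 0.180 (adjusted p = 0.0213). Among 10 Gap43-like membrane substrates and collapsin response mediators 1 was higher, Dpysl3, at 1.03 ± 0.150 (adjusted p = 0.00292), and 2 were lower, Dpysl5 at -2.76 ± 0.493 (adjusted p = 0.00759) and Basp1 at -0.32 ± 0.0841 (adjusted p = 0.0402). Of 11 spectrins, ankyrins and their partners tested, Nfasc, an adhesion protein of the axon initial segment and nodes, was higher at 0.87 ± 0.145 (adjusted p = 0.00554), and Ank3, its anchor, was lower at -0.46 ± 0.108 (adjusted p = 0.0244). Of 16 kinases of tau and neurofilaments and their activators, Cdk5r1, the activator of Cdk5, was higher at 0.69 ± 0.0944 (adjusted p = 0.00213), and Mapk10 at -0.68 ± 0.101 (adjusted p = 0.0034) and Mark1 at -0.88 ± 0.143 (adjusted p = 0.00515) were lower.

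Between RSC and LEC cells, where 3.86% of all genes passed, the calls in these lists were as follows. Synm at 1.17 ± 0.170 (adjusted p = 0.0075), Nfasc at 0.79 ± 0.142 (adjusted p = 0.0185), Dpysl3 at 0.75 ± 0.160 (adjusted p = 0.0375) and Cdk5r1 at 0.66 ± 0.141 (adjusted p = 0.0375) were higher in RSC cells. Among the tubulins Tubb5 was higher, at 0.49 ± 0.0805 (adjusted p = 0.013) and Tubb2a lower at -0.36 ± 0.0775 (adjusted p = 0.0391). Among the motors Kif5c at 0.52 ± 0.0789 (adjusted p = 0.00847) and Kif5a at 0.48 ± 0.0969 (adjusted p = 0.0298) were higher and Dync1i1 was lower, at -0.82 ± 0.136 (adjusted p = 0.013). Beside them, 1 of 3 astrocyte markers tested and 1 of 3 axon injury genes tested were lower in RSC cells, none of 8 oligodendrocyte markers passed, and the oligodendrocyte markers summed to 59.4 to 1126 CPM in RSC and 128 to 438 CPM in LEC cells. Of the inhibitory neuron markers, Gad1, Gad2 and Sst were at 0 in LEC cells. RSC sums held 0.144 to 30.4, 0 to 19.3 and 6.78 to 139.7 CPM of these genes. Npy leaned the other way, with 474 to 1029 CPM in LEC and 12.97 to 577 CPM in RSC cells. The inhibitory neuron list summed to 478 to 1039 CPM in LEC and 19.55 to 713 CPM in RSC cells, with overlap. No inhibitory neuron marker tested passed the threshold. The part of these levels in the differences was not tested.

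The 10 genes did not vary as 1 block. Over 20 sums of mouse, label and class, after the mean of each mouse was taken off, log2 CPM of Stmn2 and Gap43 had Pearson r = 0.944, Nefl and Rtn1 r = 0.917, Nefl and Nefm r = 0.804, and Nefl and Ina r = -0.725. These values describe sums that share mice and plates, and most of the variation lies between the Synpr classes. Across cells of the same mouse and class, which removes the class, Nefl and Nefm had a median Spearman rho of 0.273 over 8 sets of cells (range, 0.0289 to 0.586), Stmn2 and Gap43 of 0.165 and Nefl and Rtn1 of 0.0516, in sparse counts. Among 13472 genes, those whose pattern over the 20 sums was most like that of Nefl were Prkcd (r = 0.960), Cpne4 (0.957), Cadps2 (0.948), 1500009L16Rik (0.946) and Gnb4 (0.944).

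Nefl and Nefm are neighbours among coding genes, and in the GENCODE M21 annotation their exons overlap on opposite strands, as do those of Ina and Nt5c2. Stmn1 overlaps a microRNA gene on its own strand. Whether the counts used strand is not given in the sources used here, nor is the annotation behind them. The length of the overlaps and their distance from the 3′ ends were not measured. Whether Nefl and Nefm share counted reads was therefore not tested.

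RefSeq promoter sequences (build GRCm38.p6, which is not the build the submitters' notes name) were at hand for 3 of the 10 genes. They are shown for Rtn1, which had the lowest adjusted p between the Synpr classes, with 3 annotated starts that 3′ counting does not separate, and for Map1b, which did not pass the threshold there. Each line gives the 250 bases before a start, 5′ to 3′ on the gene's strand, with capitals for the TATA box (TATAAA), the CCAAT box (those letters), the GC box (GGGCGG) and the E box (CACGTG) on either strand.
Rtn1, chr12:72235747-72235996, minus strand: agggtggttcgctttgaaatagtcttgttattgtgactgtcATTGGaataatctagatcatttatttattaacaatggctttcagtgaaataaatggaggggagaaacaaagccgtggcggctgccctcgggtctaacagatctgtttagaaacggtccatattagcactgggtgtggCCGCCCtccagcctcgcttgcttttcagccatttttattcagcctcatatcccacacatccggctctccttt
Rtn1, chr12:72409055-72409304, minus strand: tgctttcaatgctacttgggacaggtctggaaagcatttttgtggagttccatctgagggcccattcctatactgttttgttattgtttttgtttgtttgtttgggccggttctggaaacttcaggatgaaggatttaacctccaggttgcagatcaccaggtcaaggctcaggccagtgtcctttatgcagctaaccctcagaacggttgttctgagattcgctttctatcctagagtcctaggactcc
Rtn1, chr12:72236728-72236977, minus strand: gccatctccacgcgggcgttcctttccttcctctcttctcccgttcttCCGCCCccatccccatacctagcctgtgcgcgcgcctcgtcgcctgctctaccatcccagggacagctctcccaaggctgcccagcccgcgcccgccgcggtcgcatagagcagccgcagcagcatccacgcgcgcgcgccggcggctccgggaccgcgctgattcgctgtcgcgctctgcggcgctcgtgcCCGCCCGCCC
Map1b, chr13:99516603-99516852, minus strand: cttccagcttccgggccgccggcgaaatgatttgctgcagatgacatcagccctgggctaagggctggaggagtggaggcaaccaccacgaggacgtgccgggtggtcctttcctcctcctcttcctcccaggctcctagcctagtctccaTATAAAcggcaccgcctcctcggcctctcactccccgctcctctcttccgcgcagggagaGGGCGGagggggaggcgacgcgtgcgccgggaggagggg
The first Rtn1 window held 1 CCAAT box, 1 GC box and 8 CpG dinucleotides, the next held none of the 4 motifs and 3 CpG, and the last held 3 GC boxes and 35 CpG. The Map1b window held 1 TATA box, 1 GC box and 19 CpG. Of 32851 windows of this length, 12.4% held the TATA box, 33.8% the CCAAT box, 32.7% the GC box and 6.02% the E box, and the median window held 6 CpG. Both genes thus hold GC boxes, whether or not they differed between the classes, and a match of letters is a description, not a site of binding.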

How the data were processed

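Single-cell RNA sequencing of hand-picked claustrum neurons from 4 mice on 13 plates was analysed. The authors deposited counts per gene and cell, not normalized, in 1 table of 16786 genes for the blind mouse and 1 of 23216 genes for the projection mice, with tables giving each cell's animal, plate and projection label. Per the Methods, reads from 3′-barcoded libraries with UMIs were aligned with STAR and totals are given in reads, so a count is taken as a read and intervals of counting error are too narrow. The submitters' processing notes name the build NCBIM37 and Seurat. Annotation and use of strand are not given in the sources used here. The Methods compare clusters, whereas here classes come from 1 gene, Synpr, at 200 CPM.

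Counts of cells were summed per mouse and group (at least 5 cells), normalized by TMM, filtered with filterByExpr and tested in edgeR 4.0.16 (quasi-likelihood, Benjamini-Hochberg, threshold 0.05) with the mouse as a block, since a mouse gave a sum to each group. The median correlation of deviations from the group means was 0.232 between Synpr sums of a mouse (0.204 to 0.631 over 4 pairs) and 0.0449 between label sums (-0.0342 to 0.103 over 9 pairs). DESeq2 1.42.0 and other scalings, filters, thresholds and left-out mice were alternatives. Those without plate 12, with ERCC scaling and within plates were chosen after seeing the data. Scripts ran in R 4.3.3 and Python 3.11.15 and were tested on simulated data. Nothing states more than 1 animal per value, so n counts mice. Doublets were not called, since cells were picked singly.

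The 10 genes and all lists were chosen with earlier results of these data known. The text names the 10 genes everywhere, at most 3 called genes of each cytoskeleton list by lowest adjusted p, and the 5 genes most correlated with Nefl. Older symbols were matched through RefSeq synonyms. Map4, Cldn5 and Vip, anterior and posterior position, and GFP were not analysed here.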

Additional observations from a re-analysis of the deposited data

Results flagged for a closer look

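Each of the 10 genes was checked for a mouse far from the others of its group, in 40 groups of 4 mice, of which chance alone would flag about 1 in 20. Of these, 5 stood out. Stmn1 of the blind mouse gave 4 of them. It was 894 CPM in Synpr-high cells, where the other mice held 20.1 to 26.4 CPM, and 765 CPM in Synpr-low cells, where they held 12.8 to 17.6 CPM. Among Synpr-low cells it was 875 CPM with layer 6 markers, against 14.7 to 24.6 CPM, and 707 CPM without them, against 12.4 to 14.7 CPM. The other was Nefm in Synpr-low cells without layer 6 markers, where projection mouse 1 held 106 CPM and the other mice 152 to 157 CPM. The cause of these gaps was not tested.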

How the results depend on the processing

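The higher levels of Rtn1, Nefl, Nefm, Gap43 and Stmn2 in Synpr-high cells kept their direction and call in all 15 alternatives each. The mouse block was used because sums of a mouse are paired, and without it the calls of Stmn1 in Synpr-high cells against all Synpr-low cells and against those without layer 6 markers, and that of Map1b between Synpr-low cells, were lost, while no other call of the 10 genes changed. With 3 projection mice, leaving out 1 left few degrees of freedom, and counts were lowest for Nefh, with as few as 67 in a sum.

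Counts of genes called were 1994 for Synpr-high against Synpr-low, 539 for RSC against LEC, 204 for RSC against Unlabeled, 2 for LEC against Unlabeled, 0 for RSC against LEC within Synpr-high cells, 72 for RSC against LEC within Synpr-low cells, 16 for the difference of RSC against LEC between the classes, 1229 for Synpr-high against Synpr-low without layer 6 markers and 424 for Synpr-low without against with layer 6 markers. Without the mouse as a replicate block they were 1202 for Synpr-high against Synpr-low, 0 for LEC against Unlabeled, 761 for Synpr-high against Synpr-low without layer 6 markers and 219 for Synpr-low without against with layer 6 markers. With scaling to ERCC counts they were 3164 for Synpr-high against Synpr-low, 134 for RSC against Unlabeled and 29 for RSC against LEC within Synpr-low cells. In DESeq2 they were 1312 for RSC against LEC, 808 for RSC against Unlabeled, 199 for LEC against Unlabeled, 30 for RSC against LEC within Synpr-high cells, 481 for RSC against LEC within Synpr-low cells, 164 for the difference of RSC against LEC between the classes and 1022 for Synpr-low without against with layer 6 markers. With cells thinned to 20000 counts they were 851 for RSC against LEC, 517 for RSC against Unlabeled, 59 for LEC against Unlabeled, 1 for RSC against LEC within Synpr-high cells and 7 for the difference of RSC against LEC between the classes. Without plate 12 they were 110 for RSC against Unlabeled and 41 for RSC against LEC within Synpr-low cells. With no filter on low counts the count was 5 for RSC against LEC within Synpr-high cells. With a Synpr threshold of 50 CPM the count was 3 for the difference of RSC against LEC between the classes. With a Synpr threshold of 100 CPM the count was 5 for the difference of RSC against LEC between the classes. With a Synpr threshold of 500 CPM the count was 10 for the difference of RSC against LEC between the classes. With at least 2 counts of Snap25 and Slc17a7 the count was 6 for the difference of RSC against LEC between the classes. With a layer 6 marker threshold of 50 CPM the count was 240 for Synpr-low without against with layer 6 markers. With a layer 6 marker threshold of 200 CPM the count was 732 for Synpr-low without against with layer 6 markers. Leaving out each mouse in turn gave 86 to 445 for RSC against LEC, 5 to 144 for RSC against Unlabeled, 0 to 9 for LEC against Unlabeled, 0 to 20 for RSC against LEC within Synpr-low cells, 0 to 1 for the difference of RSC against LEC between the classes, 679 to 871 for Synpr-high against Synpr-low without layer 6 markers and 180 to 338 for Synpr-low without against with layer 6 markers. Signs of log2 differences below the threshold in the edgeR fit turned in some alternatives. With library totals and no TMM they were -0.00917 for Mapt in Synpr-high against Synpr-low, -0.00741 for Mapt in RSC against LEC and -0.00399 for Mapt in Synpr-high against Synpr-low without layer 6 markers. With scaling to ERCC counts they were 0.26 for Map1b in Synpr-high against Synpr-low, 0.19 for Map1b in RSC against LEC, 0.18 for Nefh in RSC against LEC, -0.0400 for Stmn2 in RSC against LEC within Synpr-high cells and -0.00284 for Stmn2 in the difference of RSC against LEC between the classes. With cells thinned to 20000 counts they were -0.0300 for Nefh in Synpr-high against Synpr-low, 0.00420 for Rtn1 in the difference of RSC against LEC between the classes and -0.13 for Nefh in Synpr-high against Synpr-low without layer 6 markers. In DESeq2 the difference was -0.00538 for Stmn2 in RSC against LEC within Synpr-high cells. With a Synpr threshold of 50 CPM the difference was 0.0166 for Rtn1 in the difference of RSC against LEC between the classes. With a Synpr threshold of 500 CPM the difference was 0.00327 for Rtn1 in Synpr-low without against with layer 6 markers. With a layer 6 marker threshold of 200 CPM the difference was 0.00295 for Rtn1 in Synpr-low without against with layer 6 markers. With a layer 6 marker threshold of 50 CPM the difference was 0.0111 for Stmn2 in Synpr-low without against with layer 6 markers. Leaving out each mouse in turn gave -0.0420 to 0.0129 for Map1b in Synpr-high against Synpr-low, -0.0255 to 0.50 for Nefh in Synpr-high against Synpr-low, -0.0772 to 0.00527 for Map1b in RSC against LEC, -0.29 to 0.20 for Nefh in RSC against LEC, -0.24 to 0.00735 for Gap43 in LEC against Unlabeled, -0.14 to 0.0186 for Rtn1 in LEC against Unlabeled, -0.00659 to 0.14 for Rtn1 in RSC against LEC within Synpr-high cells, -0.0237 to 0.0505 for Stmn2 in RSC against LEC within Synpr-high cells, -1.30 to 0.24 for Nefm in the difference of RSC against LEC between the classes, -0.21 to 0.0692 for Rtn1 in the difference of RSC against LEC between the classes, -0.10 to 0.55 for Nefh in Synpr-high against Synpr-low without layer 6 markers, -0.11 to 0.58 for Nefh in Synpr-low without against with layer 6 markers, -0.85 to 0.10 for Nefm in Synpr-low without against with layer 6 markers, -0.0612 to 0.0479 for Rtn1 in Synpr-low without against with layer 6 markers and -0.0587 to 0.0125 for Stmn2 in Synpr-low without against with layer 6 markers. Of 1030 differences recomputed, 954 kept their direction and their side of the threshold, 17 lost a call, 27 gained one and 32 changed sign. The cause of these changes was not tested.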

Other observations

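Nefm counts were concentrated in few Synpr-low cells of projection mouse 1. The 5 cells with most counts gave 37.8% of the Nefm counts of that sum, against 17.1 to 20.5% in the Synpr-low sums of the other 3 mice and 10.9 to 20.9% in the Synpr-high sums. In the same mouse the Synpr-low cells with layer 6 markers held 512 CPM of Nefm, where those of the other mice held 122 to 190.5 CPM. These are values from single cells of 1 mouse, with no test.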
